A study of Mus musculus with 23 samples.

Results

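The imprinted growth genes described here are Igf2, H19, Dlk1, Meg3, Peg3, Mest, Cdkn1c, Grb10, Plagl1 and Igf2r, 10 genes expressed mainly from the maternal or the paternal copy. They were found on the array as all probes whose listed gene name is one of these symbols. That gave 26 of the 56605 probes, and all 10 genes had at least 1 probe. Of the 26 probes, 21 passed the filter on dim probes, which asks for a signal well above background on 5 or more arrays, and were among the 35719 probes tested. The other 5 probes were above background on 1 array at most and were not tested: A_65_P01584 of Meg3, A_66_P103516 and A_66_P134866 of Mest, A_55_P2713430 of Peg3 and A_66_P105328 of Plagl1. Every gene kept at least 1 tested probe.

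RNA came from the cardiac left ventricles of 23 male mice of a mixed S129/S4 × C57BL/6 background, each hybridised to its own single-colour Agilent array. Wild-type mice (WT) were compared with mice lacking Efnb1 in cardiomyocytes (Efnb1cKO), at 20 days (P20) and at 60 days (P60) after birth. There were 6 WT and 6 Efnb1cKO ventricles at P20, and 5 WT and 6 Efnb1cKO ventricles at P60. The Cre line is not given in the sources used here, the labels name no treatment, and the deletion leaves Efnb1 in the other cells of the ventricle.

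Imprinted genes carry a parental mark that silences 1 of the 2 copies, and several of them act on growth before and shortly after birth. Igf2 is a growth factor that drives fetal growth, Igf2r binds it and sends it to the lysosome, and Grb10 is an adaptor that dampens insulin and IGF receptor signalling. H19 and Meg3 are long noncoding RNAs made beside Igf2 and Dlk1, while Plagl1 and Peg3 are zinc finger proteins and Cdkn1c is a cell cycle inhibitor. In rodents, many of these genes are high in fetal organs and decline together as growth slows after birth.

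Levels are log2 intensities scaled to each array's 75th percentile, so the level of one probe cannot be set against that of another. Differences are log2 differences from a limma fit over all tested probes, with Benjamini-Hochberg adjusted p-values, and "rose" or "fell" is used below an adjusted p of 0.05. Between 58.1% and 62.5% of probes were well above background on an array, no spot was saturated, and arrays of a group correlated at 0.9892 to 0.9961. As a check of the labels, the Efnb1 probe A_51_P388478 was at 11.18 to 11.43 in WT and at 10.79 to 10.94 in Efnb1cKO ventricles at P60, without overlap (difference -0.48, SE 0.117, adjusted p = 0.0651). At P20 the genotypes overlapped, with WT at 11.61 to 12.35 and Efnb1cKO at 11.37 to 11.80, and Efnb1cKO replicate 6 lay above 4 WT ventricles (difference -0.35, SE 0.111, adjusted p = 0.772). Cardiomyocyte markers were present in all groups, with a summed level of 20.12 to 20.40 over 8 genes.

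A set of 3 arrays at P20 stood apart from the other 9 and touched most of the genes described here: WT replicates 5 and 6 and Efnb1cKO replicate 6. Their level of the clock gene Arntl was 7.62 to 8.07, against 5.11 to 6.17 on the other 9 arrays, and that of the clock gene Dbp was 12.23 to 12.52, against 14.40 to 14.92. The proliferation gene Mki67 was also higher there, at 8.36 to 8.85 against 6.65 to 7.26. Summed cell type markers set them apart too: fibroblast markers at 16.52 to 16.69 against 16.04 to 16.46 and endothelial markers at 15.90 to 16.02 against 15.64 to 15.80 were higher. Macrophage markers at 14.31 to 14.40 against 14.48 to 14.71 and atrial markers at 14.67 to 15.55 against 15.80 to 18.30 were lower. The part of these cells in the values of the 3 arrays was not tested. By their brightest probes, Igf2, Igf2r, Grb10, H19, Meg3, Peg3 and Mest were higher on all 3 arrays than on any of the other 9. Dlk1, Plagl1 and Cdkn1c overlapped between the 3 arrays and the other 9. At P60 the clock genes split the arrays as well. WT replicate 6 and Efnb1cKO replicates 5 and 6 had Arntl at 6.98 to 7.17 and Dbp at 14.66 to 14.83, against 8.67 to 9.80 and 11.11 to 13.06 on the other 8. By their brightest probes, Grb10 and H19 were lower on these 3 arrays than on the other 8. Below, "the 3 arrays" are those at P20. Fits without them, without the 3 at P60 or without all 6, and fits with Arntl minus Dbp as a clock gene covariate, all chosen after seeing the data, are given beside the genes they move.

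From P20 to P60 the group fell in WT ventricles. Of 21 tested probes 16 were called, all of them lower at P60, where 36.6% of all tested probes were called in either direction and 18.1% were called lower. In Efnb1cKO ventricles 15 were called, 14 lower and 1 higher, where 39.8% of all tested probes were called and 19.9% were called lower. The median difference over the 21 probes was -1.08 in WT and -0.78 in Efnb1cKO, beside medians of 0.00 and 0.01 over all tested probes. The ages did not overlap at 13 of the 21 probes in WT and at 12 in Efnb1cKO, as at 22.5% and 20.2% of all tested probes. Taking only the brightest probe of each gene, 8 of 10 genes fell in WT, where 17.5% of genes were called lower and 20.5% higher. In Efnb1cKO 7 of 10 fell and 1 rose, where 18.9% of genes were called lower and 21.2% higher. With the 3 arrays at P20 left out the counts were again 16 and 15, but in WT 15 of the 16 were lower: Dlk1 A_52_P177324 and Mest A_55_P2151868 were no longer called, while Plagl1 A_55_P1961965 and, as a rise, Igf2r were. Without the 3 arrays at P60, and without all 6, the counts were 15 and 14. The other 9 arrays at P20 and the other 8 at P60 did not overlap in either clock gene. Arntl was at 5.11 to 6.17 and at 8.67 to 9.80 there, and Dbp at 14.40 to 14.92 and at 11.11 to 13.06. Age and clock gene level thus cannot be told apart without all 6 arrays, and largely go together with them. The direction of every fall past the threshold was kept under normexp background correction, but falls of dim probes were smaller there, as given below. Under median scaling, 61.7% of the WT probes called for age over the whole array were higher, against 50.6% here. The ventricle is a mixture of cells, and fewer cells of a type cannot be told apart from less RNA per cell.

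**Figure D1:**
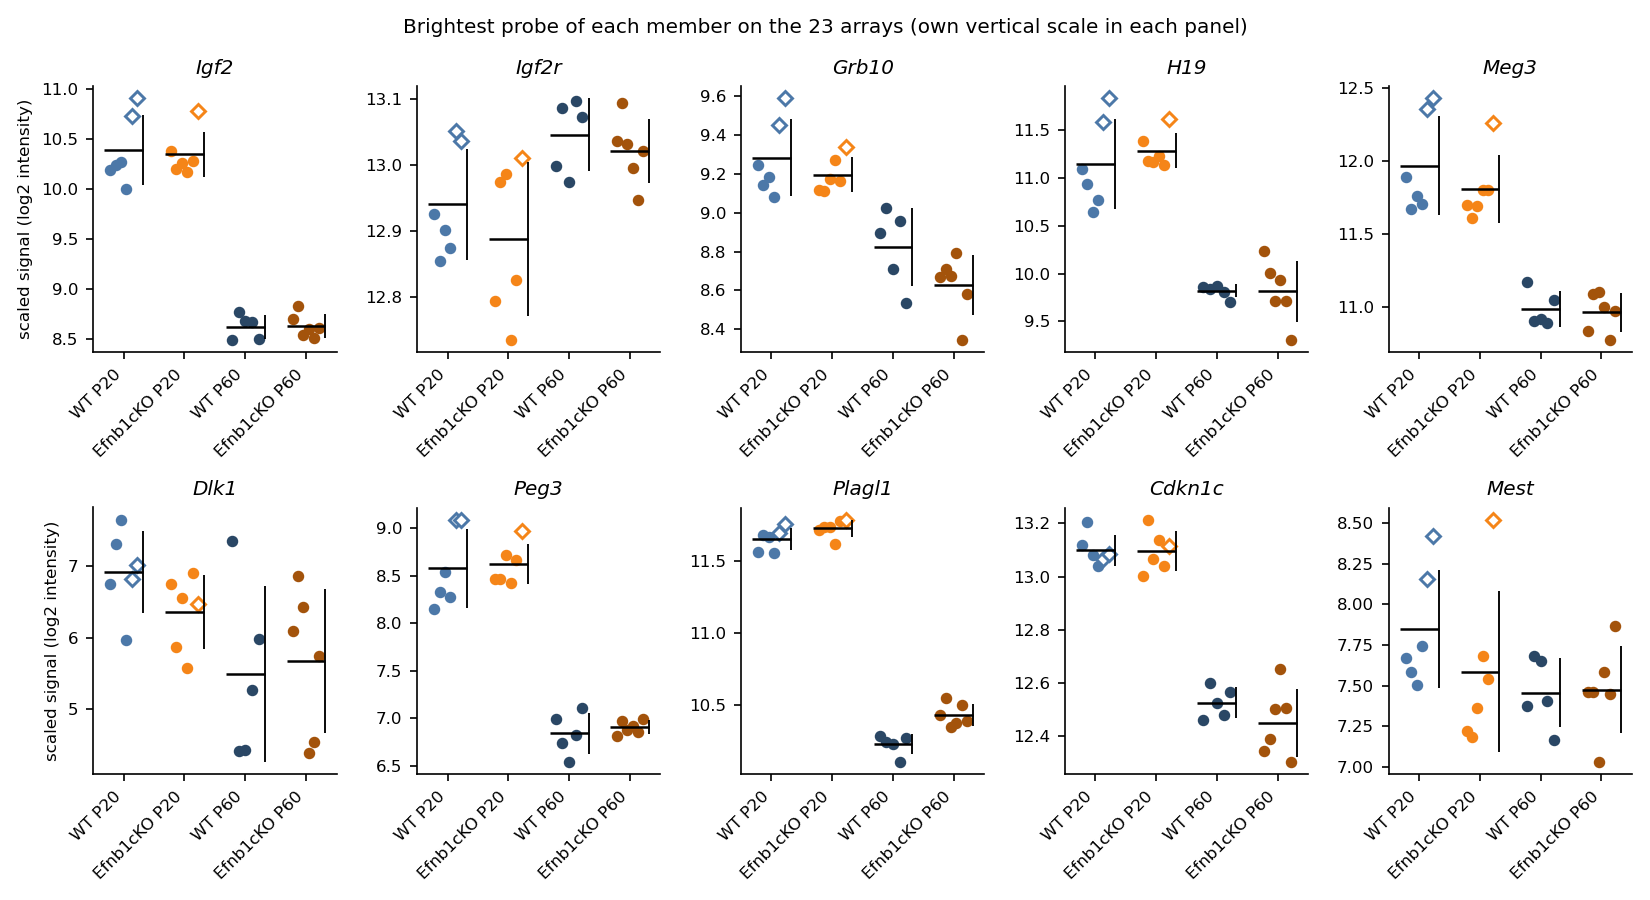
Scaled signal (log2 intensity) of the brightest probe of each gene on every array, with 6 arrays per group and 5 for WT P60; horizontal lines are group means, vertical lines 1 SD on either side, and open diamonds are the 3 arrays that stood apart at P20. Igf2, H19, Meg3, Peg3, Plagl1, Cdkn1c and Grb10 had no overlap between the ages in either genotype, Igf2r was not lower at P60, and Dlk1 and Mest overlapped.

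Igf2, the growth factor of the group, fell strongly in both genotypes. Its brightest probe, A_51_P516833 (mm9, chr7:149837115-149837174, minus strand), had a lowest, median and highest level of 9.998, 10.25 and 10.91 in WT at P20. At P60 the 5 WT ventricles were at 8.48, 8.50, 8.66, 8.68 and 8.77. In Efnb1cKO the lowest, median and highest levels were 10.17, 10.27 and 10.78 at P20 and 8.50, 8.60 and 8.83 at P60. Every P60 ventricle lay below every P20 ventricle, and the highest P20 values were those of the 3 arrays named above. The fall was -1.77 (SE 0.134, adjusted p = 3.4e-09) in WT, which leaves 29.3% of the P20 signal, and -1.72 (SE 0.128, adjusted p = 2.2e-09) in Efnb1cKO. Without the 3 arrays it was -1.56 in WT and -1.63 in Efnb1cKO. The second probe, A_55_P2118173, differed by -1.54 (adjusted p = 1.6e-06) in WT and by -1.60 (adjusted p = 4.1e-07) in Efnb1cKO, and so fell in both. With normexp background correction these were -0.92 and -0.93.

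Igf2r, the receptor that clears Igf2, did not fall. Its probe A_51_P125467, on the minus strand of chromosome 17 with a listed mm9 interval shorter than the probe (chr17:12875253-12875263), was at 12.85, 12.91 and 13.05 (lowest, median, highest) in WT at P20, and at 12.97, 12.999, 13.07, 13.09 and 13.097 in WT at P60. Efnb1cKO ventricles were at 12.73, 12.90 and 13.01 at P20 and at 12.95, 13.03 and 13.09 at P60. The ages overlapped in both genotypes. The difference was 0.11 (95% interval -0.01 to 0.22, adjusted p = 0.13) in WT and 0.13 (95% interval 0.03 to 0.24, adjusted p = 0.041) in Efnb1cKO. The Efnb1cKO call was lost under 9 of 17 other settings and on leaving out any of 7 single arrays, and the authors' own values gave 0.01. In WT the difference passed the threshold with array weights and without the 3 arrays.

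Grb10, the adaptor that dampens IGF and insulin receptor signalling, fell by a smaller amount and unequally between its 3 probes. The brightest, A_55_P1955457 (mm9, chr11:11833165-11833224, minus strand), was at 9.08, 9.21 and 9.59 (lowest, median, highest) in WT at P20, and at 8.54, 8.71, 8.89, 8.96 and 9.02 in WT at P60. Efnb1cKO ventricles were at 9.11, 9.17 and 9.34 at P20 and at 8.34, 8.67 and 8.79 at P60. The ages did not overlap in either genotype. The fall was -0.46 (SE 0.097, adjusted p = 0.00088) in WT and -0.57 (SE 0.093, adjusted p = 5.6e-05) in Efnb1cKO. A_52_P40363 differed by -0.17 in WT (adjusted p = 0.22) and fell by 0.42 in Efnb1cKO (adjusted p = 0.0024). A_55_P2717329 differed by -0.02 and -0.20 (adjusted p = 0.93 and 0.28). With the clock gene covariate A_52_P40363 was called in WT as well (-0.40, adjusted p = 0.0027), and A_55_P2717329 in Efnb1cKO (-0.43, adjusted p = 0.013). Without all 6 arrays the difference was -0.27 for A_55_P1955457 in WT and -0.25 for A_52_P40363 in Efnb1cKO. The 3 probes lie at separate positions of chromosome 11, and which transcripts each one reads was not determined here.

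**Figure D2:**
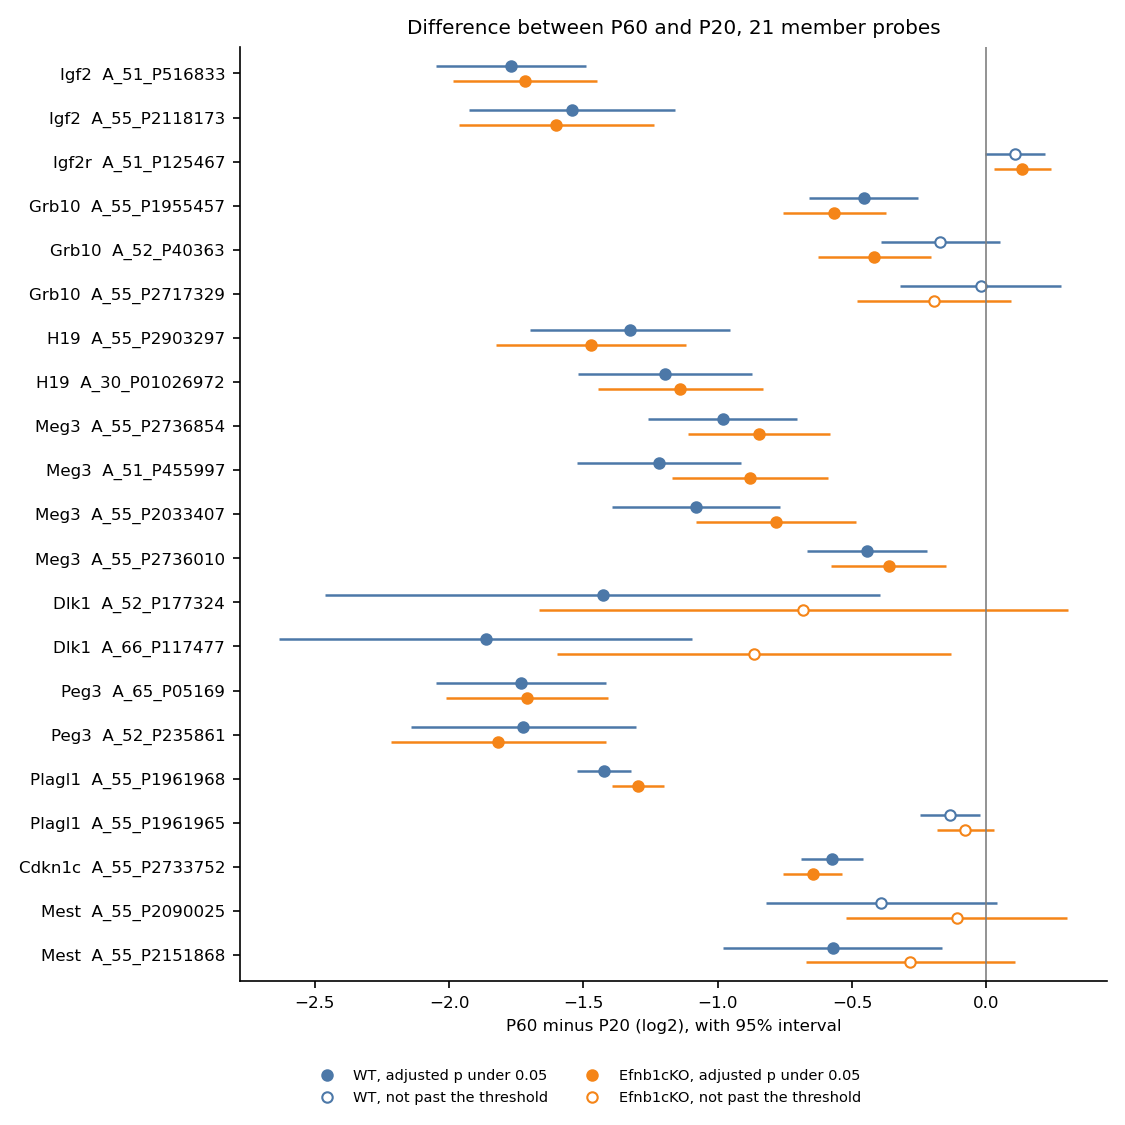
Difference between P60 and P20 (log2 scale, horizontal axis) for the 21 tested probes, in WT (blue) and Efnb1cKO (orange); points are limma estimates, bars 95% intervals, and filled points have an adjusted p under 0.05. Igf2, Peg3, H19 and the brighter Plagl1 probe fell by more than 1 in both genotypes, while the Grb10 and Plagl1 probes spread from near 0 to clear falls.

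H19, the noncoding RNA made beside Igf2, fell in both genotypes. The sequences of its 2 probes, on the minus strand of chromosome 7 in mm9 (chr7:149761492-149761551 and chr7:149762173-149762232), show that different stretches of the RNA were read:
H19 A_55_P2903297: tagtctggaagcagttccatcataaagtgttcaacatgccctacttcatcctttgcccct
H19 A_30_P01026972: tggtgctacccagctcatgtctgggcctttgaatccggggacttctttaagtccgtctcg
The first was at 10.65, 11.02 and 11.84 (lowest, median, highest) in WT at P20, and at 9.71, 9.81, 9.84, 9.86 and 9.87 in WT at P60. In Efnb1cKO it was at 11.14, 11.21 and 11.62 at P20 and at 9.30, 9.82 and 10.23 at P60. No P60 ventricle reached the lowest P20 ventricle. The fall was -1.33 (SE 0.179, adjusted p = 7.0e-06) in WT and -1.47 (SE 0.17, adjusted p = 8.3e-07) in Efnb1cKO, and without the 3 arrays -1.04 and -1.41. The second probe fell by 1.197 and 1.14 (adjusted p = 4.5e-06 and 3.6e-06), and with normexp background correction by 0.61 and 0.595.

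In the 3 groups of 6 ventricles, no relation between Igf2 and H19 passed the adjusted threshold, and WT at P60, with 5, was not tested. Over the 6 WT ventricles at P20, Pearson's r was 0.917 (exact permutation p = 0.0208, adjusted over 6 relations 0.0999) and Spearman's rho 0.60 (exact permutation p = 0.242). Without replicates 5 and 6, the values farthest from the Igf2 median, r was 0.051. Over the 6 Efnb1cKO ventricles at P20 r was 0.928 (exact permutation p = 0.0333, adjusted 0.0999) and rho 0.43 (exact permutation p = 0.419), and without replicates 1 and 6 r was -0.893. At P60 in Efnb1cKO r was 0.497 (exact permutation p = 0.31, adjusted 0.465) and rho 0.60 (exact permutation p = 0.242). Both values at P20 rest on the arrays left out. The 4 ventricles that remain in each case span a narrow range of Igf2, so they say little about a relation. The 6 relations are these 3 and the 3 of Dlk1 with Meg3, and none passed the adjusted threshold.

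Meg3, the noncoding RNA made beside Dlk1, fell at all 4 of its tested probes, by amounts that differed between positions on chromosome 12. The probe that fell most in WT, A_51_P455997, the brightest probe, A_55_P2736854, and the probe that fell least, A_55_P2736010, read these stretches (mm9, plus strand, chr12:110809678-110809737, chr12:110783470-110783529 and chr12:110799833-110799892):
Meg3 A_51_P455997: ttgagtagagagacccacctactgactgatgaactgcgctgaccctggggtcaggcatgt
Meg3 A_55_P2736854: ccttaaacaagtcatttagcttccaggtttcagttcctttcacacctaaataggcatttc
Meg3 A_55_P2736010: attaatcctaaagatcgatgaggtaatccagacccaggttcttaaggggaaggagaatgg
The whole sequence of A_55_P2736854 lies inside the RefSeq promoter window of a second annotated Meg3 start (GRCm38.p6, chr12:109545148-109545447), from base 113 of its 300 bases and so before that start. A_55_P2736854 was at 11.67, 11.83 and 12.43 (lowest, median, highest) in WT at P20, and at 10.89, 10.91, 10.92, 11.05 and 11.17 in WT at P60. Efnb1cKO ventricles were at 11.61, 11.75 and 12.26 at P20 and at 10.77, 10.99 and 11.10 at P60, so the ages did not overlap. The fall was -0.98 (SE 0.133, adjusted p = 7.8e-06) in WT, which leaves 50.6% of the P20 signal, and -0.85 (SE 0.127, adjusted p = 2.1e-05) in Efnb1cKO. A_51_P455997 fell by 1.22 and 0.88 (adjusted p = 1.8e-06 and 3.9e-05), and A_55_P2033407 by 1.08 and 0.78 (adjusted p = 1.0e-05 and 0.00018). A_55_P2736010 fell by 0.44 and 0.36 (adjusted p = 0.0027 and 0.0075), and its ages overlapped in both genotypes. With normexp background correction A_55_P2736010 fell by 0.29 and 0.24, and A_55_P2033407 by 0.51 in Efnb1cKO. Without all 6 arrays A_55_P2736010 differed by -0.29 in Efnb1cKO (adjusted p = 0.053). Meg3 was among the genes raised on the 3 arrays at P20, and without them A_55_P2736854 fell by 0.77 in WT and by 0.76 in Efnb1cKO.

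Dlk1, a membrane protein related to the Notch ligands that restrains differentiation, fell in WT at both of its probes, but the 2 probes did not follow each other. A_52_P177324 (mm9, chr12:110698428-110698487) was at 5.97, 6.92 and 7.66 (lowest, median, highest) in WT at P20, and at 4.42, 4.43, 5.28, 5.99 and 7.36 in WT at P60. In Efnb1cKO it was at 5.58, 6.52 and 6.91 at P20 and at 4.38, 5.92 and 6.87 at P60. The ages overlapped widely, with WT replicate 1 at P60 above most P20 ventricles. The difference was -1.43 (SE 0.497, adjusted p = 0.028) in WT and -0.68 (SE 0.474, adjusted p = 0.27) in Efnb1cKO. The WT call was lost on leaving out WT replicate 2 or 3 at P20, or replicate 3, 4 or 5 at P60, with differences of -1.16 to -1.37, without the 3 arrays (-1.43, adjusted p = 0.078), without all 6 (-1.55, adjusted p = 0.080) and with the clock gene covariate (-1.42, adjusted p = 0.075). The difference was -0.62 in WT and -0.26 in Efnb1cKO with normexp background correction, and -0.88 and -0.37 in the authors' own values.

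The other Dlk1 probe, A_66_P117477 (mm9, chr12:110698721-110698781), was at 5.80, 6.14 and 7.30 in WT at P20 and at 3.35, 4.25, 4.61, 5.20 and 5.23 in WT at P60, without overlap. Efnb1cKO ventricles were at 5.46, 5.67 and 7.26 at P20 and at 4.42, 5.18 and 5.49 at P60, where 5 of 6 P60 ventricles lay below every P20 ventricle. It fell by 1.86 in WT (SE 0.37, adjusted p = 0.00047) and differed by -0.87 in Efnb1cKO (SE 0.353, adjusted p = 0.056). The lowest WT value at P60, 3.35 in replicate 4, was not well above background, so the size of the fall is uncertain, and without that ventricle it was -1.57 (adjusted p = 0.0020). The fall in WT was -0.71 with normexp background correction and -1.01 in the authors' own values, both past the threshold. In Efnb1cKO it was -0.36 with normexp background correction, -0.48 in the authors' own values and -0.47 without all 6 arrays. The Efnb1cKO difference passed the threshold under 3 of 16 other settings and without WT replicate 6 at P20, WT replicate 4 at P60 or Efnb1cKO replicate 3 at P20, and the interaction that compares the genotypes was 0.997 (95% interval -0.07 to 2.06, adjusted p = 1).

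A sequence feature set the first Dlk1 probe apart, and it was looked for after the values had been seen. The probes of other named genes nearest to it over the 23 arrays were those of Gabra2, Treml2 and Cd5l, which share with it a run of AAGAAGAAG. The Dlk1 probe and the stretch around the run in each of the others are shown with that run in capitals:
Dlk1 A_52_P177324: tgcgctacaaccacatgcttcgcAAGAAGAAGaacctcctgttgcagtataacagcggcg
Gabra2 A_55_P2027900: aaaatttagAAGAAGAAGgagaagaag
Treml2 A_55_P2733722: tgcaaagtcAAGAAGAAGAAGtgcgac
Cd5l A_51_P205779: cctcgttagAAGAAGAAGgtcgttgga
The root mean square difference to the Dlk1 probe, after each probe was centred on its own mean, was 0.15, 0.17 and 0.18, where the Dlk1 probe itself varied by 0.97. The nearest other gene of the group, Meg3, was at 0.78, and the second Dlk1 probe at 0.90. Of all tested probes 124 (0.347%) hold the run as printed, but it was in 9 of the 10 probes nearest to the Dlk1 probe, 16 of the nearest 20 and 54 of the nearest 100. Its reverse complement is in 17 tested probes (0.0476%) and in none of the nearest 100. No other probe of the 10 genes holds the run in either direction.

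The other 123 probes with the run differed between arrays of the same group. Their median age difference was -0.47 in WT, with 35 called and 22 of these lower, and -0.29 in Efnb1cKO, with 15 called and 5 of these lower. Over all tested probes the medians were 0.00 and 0.01, and 36.6% and 39.8% were called. The probes with the run were thus lower at the median, with no larger a share called. Their median deviation from each probe's mean ran from -0.63 to 0.75, and it was 0.47 in WT replicate 1 at P60 against -0.44 and -0.50 in replicates 3 and 4 of the same group. The first Dlk1 probe deviated by 1.22, -1.72 and -1.71 on those arrays, and the second by -0.32, -0.91 and -2.18. With the median of the 123 probes as a covariate, an alternative chosen after seeing the data, the WT difference of A_52_P177324 was -0.36 (adjusted p = 0.086), while that of A_66_P117477 was -1.80 (adjusted p = 0.0023). In Efnb1cKO they were -0.07 and -0.83 (adjusted p = 0.76 and 0.087). The cause of the shared movement was not tested.

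**Figure D3:**
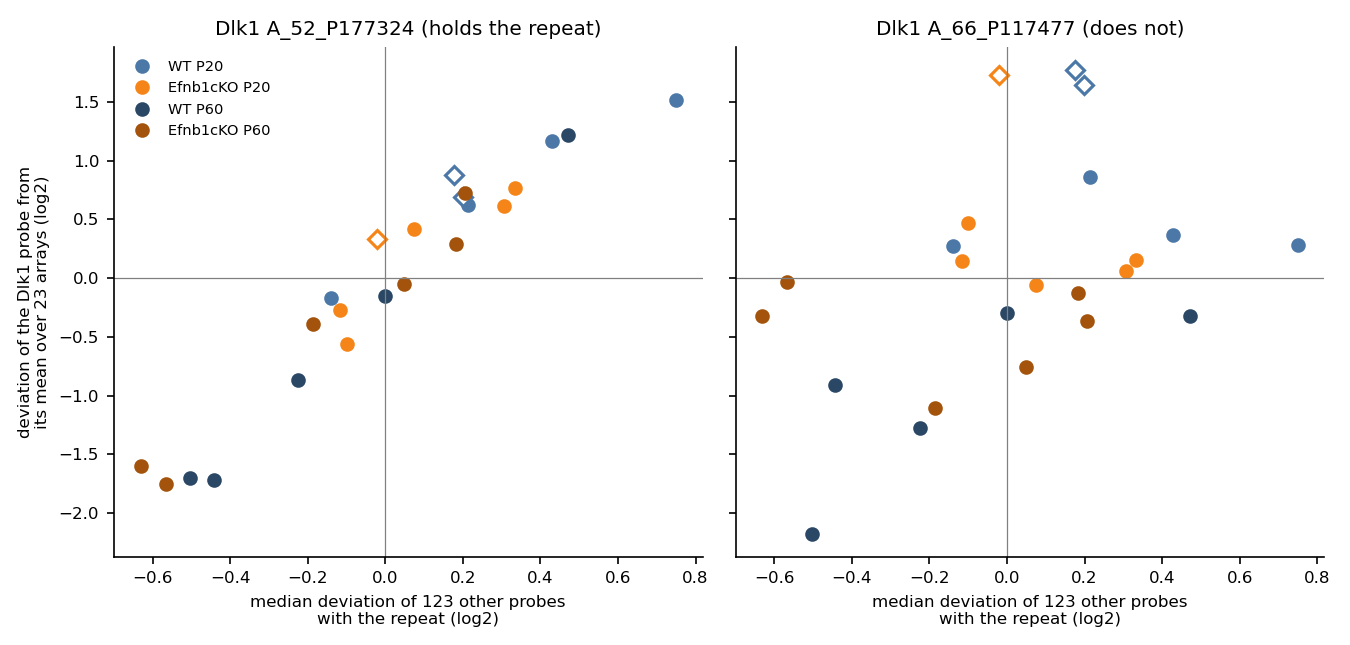
Deviation of each Dlk1 probe from its own mean over 23 arrays (log2, vertical axis) against the median deviation of 123 other probes that hold the run AAGAAGAAG (log2, horizontal axis), 1 point per array, with open diamonds for the 3 arrays that stood apart at P20. The probe that holds the run (left) runs from -1.76 to 1.52 and rises with those probes, and the probe without it (right) is highest on the 3 diamonds, at 1.65 to 1.77.

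In the 3 groups of 6 ventricles, Dlk1, read by the probe with the run, and Meg3 showed no relation that passed the threshold. Pearson's r was -0.00 in WT at P20, 0.15 in Efnb1cKO at P20 and 0.54 in Efnb1cKO at P60 (exact permutation p = 0.989, 0.814 and 0.261, adjusted 0.989, 0.977 and 0.465), and Spearman's rho was -0.09, 0.20 and 0.54 (exact permutation p = 0.919, 0.714 and 0.297). Without the 2 arrays farthest from the Dlk1 median r was -0.46, -0.55 and 0.62.

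Peg3, a zinc finger protein of the paternally expressed genes, fell as much as Igf2. A_65_P05169 (mm9, chr7:6657078-6657137, minus strand) was at 8.15, 8.43 and 9.09 (lowest, median, highest) in WT at P20, and at 6.55, 6.74, 6.82, 6.99 and 7.11 in WT at P60. In Efnb1cKO it was at 8.43, 8.57 and 8.97 at P20 and at 6.81, 6.90 and 6.998 at P60. The ages did not overlap in either genotype. The fall was -1.73 (SE 0.152, adjusted p = 2.7e-08) in WT and -1.71 (SE 0.145, adjusted p = 1.3e-08) in Efnb1cKO, and without the 3 arrays -1.48 and -1.64. A_52_P235861 fell by 1.72 and 1.82 (adjusted p = 1.2e-06 and 2.6e-07), by 0.79 and 0.82 with normexp background correction, and by 1.06 and 1.14 in the authors' own values.

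The pattern of Peg3 over the 23 arrays was nearer to that of Igf2, with a root mean square difference of 0.18, than to that of any of the 16891 other named genes compared. Among those, Mfap2 (0.20), Zfp711 (0.23) and Slc26a10 (0.24) came next. For Igf2 the nearest were Mfap2 (0.17), a microfibril protein gene, ahead of Peg3, then Kcne1 (0.24) and Col5a1 (0.24). For H19 they were the collagen genes Col1a1 (0.24) and Col5a2 (0.25), then Igf2 (0.25) and Kcne1 (0.26). For Meg3 they were Fkbp10 (0.14), Itm2a (0.15) and Purg (0.15), and for Plagl1 Frem2 (0.16), Tet1 (0.16) and D630033O11Rik (0.17). Cdkn1c was nearest to Clec2d (0.09), Lama2 (0.09) and Fbxo9 (0.09), and Grb10 to Nol4l (0.12), Fmr1 (0.13) and Prdm11 (0.13). Mest was nearest to Lxn (0.18), Prcp (0.18) and Fabp5 (0.19), and Igf2r to Mios (0.04), Sec16a (0.05) and Ilvbl (0.05). A gene that varies little has small differences to many others, so these distances cannot be compared between genes.

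Plagl1, a zinc finger transcription factor known to activate other imprinted genes, fell with little spread between ventricles, and only at 1 of its 2 tested probes. A_55_P1961968 (mm9, chr10:12850832-12850891) was at 11.56, 11.67 and 11.75 (lowest, median, highest) in WT at P20, and at 10.105, 10.23, 10.24, 10.27 and 10.28 in WT at P60. Efnb1cKO ventricles were at 11.61, 11.73 and 11.78 at P20 and at 10.34, 10.41 and 10.55 at P60. The ages were far apart, and the 3 arrays that stood apart at P20 overlapped with the other 9 here. The fall was -1.42 (SE 0.049, adjusted p = 5.1e-14) in WT and -1.30 (SE 0.046, adjusted p = 1.3e-13) in Efnb1cKO, which leaves 37.3% and 40.7% of the P20 signal. The other probe, A_55_P1961965 (mm9, chr10:12848421-12848480), differed by -0.14 in WT (95% interval -0.25 to -0.02, adjusted p = 0.052) and by -0.08 in Efnb1cKO (adjusted p = 0.24). Its WT difference passed the threshold under 4 of 17 other settings. It carries 4 copies of CCACAG, shown in capitals, and no stop codon in any frame of this strand:
Plagl1 A_55_P1961965: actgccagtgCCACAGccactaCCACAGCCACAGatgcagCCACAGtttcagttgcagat
Which transcript either probe reads was not determined here.

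The published binding motif of Plagl1, GGGGCCCC, which is its own reverse complement, was searched in the RefSeq promoter windows of the group (GRCm38.p6, 250 bases before to 50 after a start). It was found in 1 of 15 windows of the 8 genes that have any, and in 354 of 32851 windows in all (1.08%). H19 and Cdkn1c have no window in the table. The window that holds it is that of Peg3, and its 250 bases before the start (chr7:6730420-6730669, minus strand) are given with the motif in capitals:
Peg3 promoter: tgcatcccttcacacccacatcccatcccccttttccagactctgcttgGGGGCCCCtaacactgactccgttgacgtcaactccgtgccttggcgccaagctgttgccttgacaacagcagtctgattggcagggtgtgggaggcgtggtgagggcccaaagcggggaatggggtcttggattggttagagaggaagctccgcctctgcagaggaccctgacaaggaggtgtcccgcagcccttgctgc
A match describes the letters only, and its absence elsewhere says nothing of binding.

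Cdkn1c, the imprinted inhibitor of cyclin-dependent kinases, fell moderately and evenly. Its only probe, A_55_P2733752 (mm9, chr7:150644297-150644356, minus strand), was at 13.04, 13.08 and 13.21 (lowest, median, highest) in WT at P20, and at 12.46, 12.48, 12.52, 12.57 and 12.60 in WT at P60. In Efnb1cKO it was at 13.002, 13.09 and 13.21 at P20 and at 12.30, 12.44 and 12.65 at P60. The ages did not overlap, and the 3 arrays lay within the range of the others. It fell by 0.57 in WT (SE 0.056, adjusted p = 1.0e-07) and by 0.65 in Efnb1cKO (SE 0.053, adjusted p = 7.7e-09).

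Mest, a hydrolase-like protein of the paternally expressed genes, gave a fall that depended on the setting. A_55_P2090025 (mm9, chr6:30697385-30697444) was at 7.51, 7.71 and 8.42 (lowest, median, highest) in WT at P20, and at 7.17, 7.38, 7.41, 7.65 and 7.68 in WT at P60. Efnb1cKO ventricles were at 7.18, 7.45 and 8.52 at P20 and at 7.03, 7.46 and 7.87 at P60. The difference was -0.39 (95% interval -0.82 to 0.04, adjusted p = 0.15) in WT and -0.11 (95% interval -0.52 to 0.30, adjusted p = 0.69) in Efnb1cKO. The highest P20 values were those of the 3 arrays, and without them the differences were -0.17 and 0.08 (adjusted p = 0.4 and 0.67). A_55_P2151868 fell by 0.57 in WT (SE 0.196, adjusted p = 0.026). That call was lost without the 3 arrays (-0.37, adjusted p = 0.12), without the 3 at P60 (-0.50, adjusted p = 0.087), without all 6 (-0.30, adjusted p = 0.26), with normexp background correction (-0.14), with array weights (-0.38), in the authors' own values (-0.24) and without WT replicate 5 or 6 at P20 or replicate 1 or 6 at P60 (-0.54, -0.45, -0.52 and -0.50). A_55_P2090025 differed by -0.10 in WT without all 6 arrays. The clock gene covariate moved Mest the other way. With it A_55_P2090025 was called in WT (-0.74, adjusted p = 0.0099), and A_55_P2151868 in WT (-0.90, adjusted p = 0.0015) and in Efnb1cKO (-0.58, adjusted p = 0.019, against -0.28 and 0.24 without it).

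No probe of the group passed the threshold for genotype in the limma fit. At P20 0 of 21 were called, where 0.0252% of all tested probes were called, and 1 had an unadjusted p under 0.05. At P60 0 were called, where 0.599% of all tested probes were called, and 1 had an unadjusted p under 0.05. For the genotype by age interaction 0 were called, where 0.0392% of all tested probes were called, and 0 had an unadjusted p under 0.05. The 95% intervals of the genotype difference at P60 ran from -0.27 to 0.29 for Igf2, -0.37 to 0.37 for H19, -0.30 to 0.25 for Meg3, -0.25 to 0.38 for Peg3, -0.19 to 0.04 for Cdkn1c, -0.41 to 0.45 for Mest, -0.14 to 0.09 for Igf2r and -0.40 to 0.01 for Grb10 at the brightest probes. All 3 Grb10 probes had lower means in Efnb1cKO at P60, with overlapping groups and none past the threshold (-0.20, -0.19 and -0.16, adjusted p = 0.60, 0.67 and 0.85), and without the 3 arrays at P60 the differences were -0.18, -0.13 and -0.04. For the Dlk1 probe without the run the interval was -0.22 to 1.31. Below 0 at P20 were 15 of the 21 differences, among them those of every Dlk1, Meg3 and Mest probe. The P20 intervals were -1.55 to 0.42 and -1.18 to 0.28 for the Dlk1 probes with and without the run. At the brightest probes they were -0.42 to 0.11 for Meg3, -0.67 to 0.15 for Mest, -0.31 to 0.22 for Igf2 and -0.21 to 0.50 for H19. The 3 arrays that stood apart at P20 fall more on WT than on Efnb1cKO.

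Plagl1 came nearest to a genotype difference. At P60 its probe A_55_P1961968 was at 10.34, 10.38, 10.38, 10.43, 10.50 and 10.55 in the 6 Efnb1cKO ventricles, all above the 5 WT ventricles, of which the highest was at 10.28. It was the only one of the 21 probes without overlap between genotypes at either age, where 0.224% of all tested probes did not overlap at P20 and 2.0% at P60. The difference was 0.20 (95% interval 0.10 to 0.30, unadjusted p = 0.00044, limma adjusted p = 0.060), or 115% of the WT signal. It passed the threshold under 5 of 17 other settings, with differences of 0.20 to 0.23. At P20 the difference was 0.07 (95% interval -0.02 to 0.17, adjusted p = 1), and the interaction was 0.13 (95% interval -0.01 to 0.27, adjusted p = 1). The second Plagl1 probe differed by -0.06 at P60 and by -0.12 at P20 (unadjusted p = 0.034, adjusted p = 1), in the opposite direction.

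**Figure D4:**
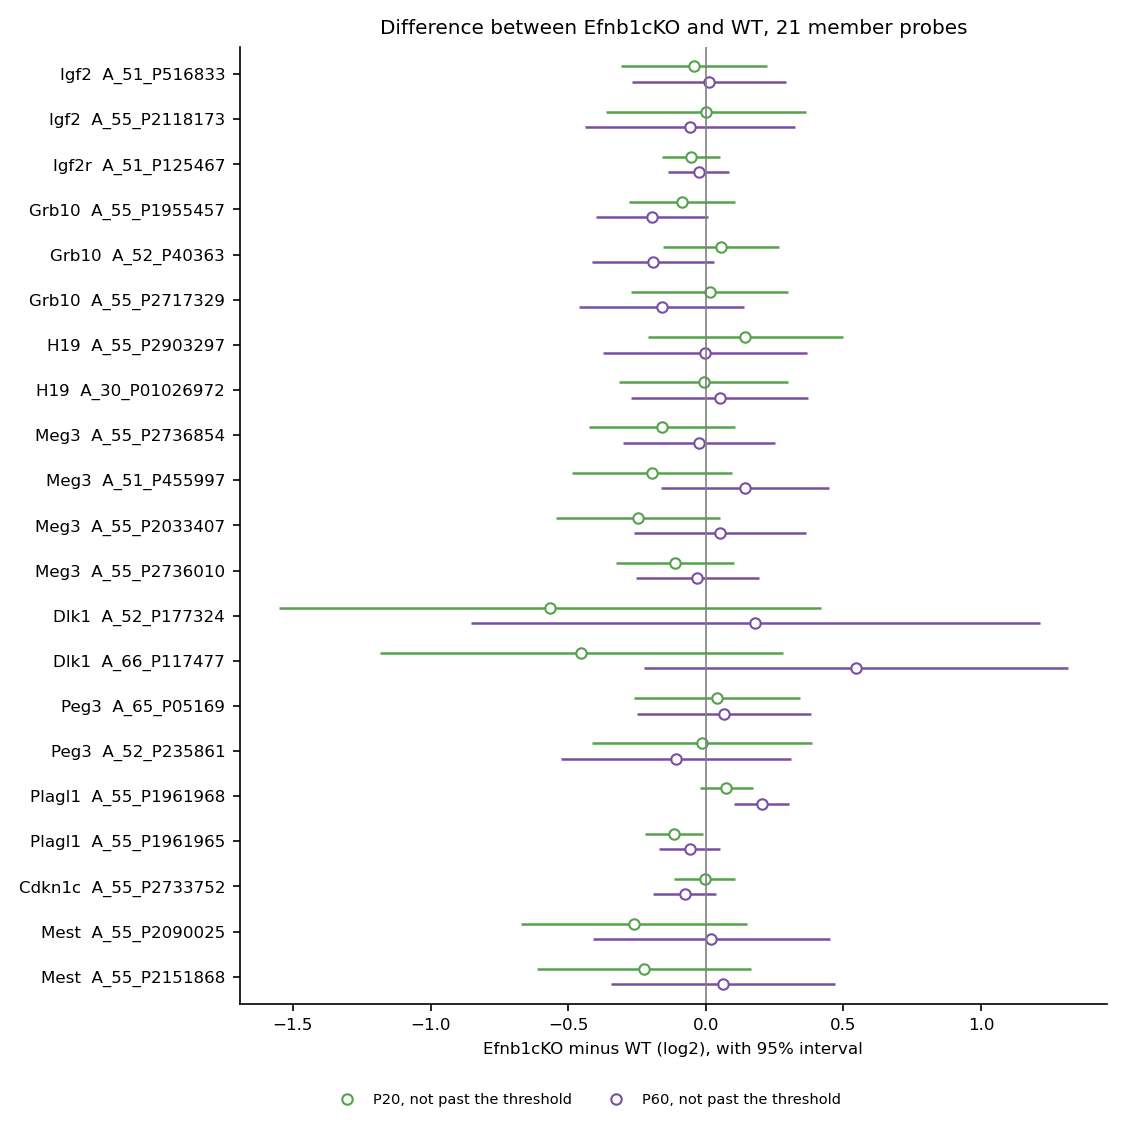
Difference between Efnb1cKO and WT (log2 scale, horizontal axis) for the 21 tested probes at P20 (green) and P60 (purple); points are limma estimates, bars 95% intervals, and open points did not pass an adjusted p of 0.05. The bar of Plagl1 A_55_P1961968 at P60, from 0.10 to 0.30, lies to the right of 0, and the Dlk1 bars are the widest.

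Other imprinted genes changed in both directions, in WT about as often as all genes. Of 51 tested genes on a list of 65, 9 rose and 11 fell in WT and 11 rose and 12 fell in Efnb1cKO, where 20.5% of all genes rose and 17.5% fell in WT and 21.2% and 18.9% in Efnb1cKO. The medians were -0.04 and -0.02, beside 0.02 and 0.02 over all genes. Of the falls past the threshold in WT, the largest were those of Sfmbt2 (-0.98, adjusted p = 0.00052), a polycomb group protein gene, Slc38a4 (-0.97, adjusted p = 6.4e-08), an amino acid transporter gene, and Ascl2 (-0.74, adjusted p = 0.012), a transcription factor gene of the placenta. Nap1l5 (1.29, adjusted p = 0.00014), Tnfrsf23 (0.73, adjusted p = 1.9e-08) and Slc22a3 (0.57, adjusted p = 1.3e-05) had the largest rises past it. In Efnb1cKO, Sfmbt2, Slc38a4, Nap1l5, Tnfrsf23 and Slc22a3 were called in the same direction, and Ascl2 differed by -0.21 (adjusted p = 0.45).

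Of 43 tested genes of IGF and insulin signalling, 9 rose and 8 fell in WT, and 10 rose and 10 fell in Efnb1cKO, close to the shares over all genes given above. Igfbpl1, an IGF binding protein-like gene, fell by 2.004 in WT (adjusted p = 1.9e-08), Pappa2, a protease of IGF binding proteins, by 1.11 (adjusted p = 0.036), and Stc2, an inhibitor of such proteases, by 0.94 (adjusted p = 2.0e-07). Igfals, which carries IGF in the circulation, rose by 1.05 (adjusted p = 3.2e-06), the insulin receptor Insr by 0.39 (adjusted p = 0.00016) and the mTOR inhibitor Tsc2 by 0.37 (adjusted p = 4.0e-06). The receptor Igf1r differed by 0.03 in WT (adjusted p = 0.86) and the ligand Igf1 by -0.18 (adjusted p = 0.16).

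Of 7 other genes with a Cdkn symbol, 3 rose and 3 fell in each genotype, so not all of them fell with Cdkn1c. Over all genes 20.5% rose and 17.5% fell in WT, and 21.2% and 18.9% in Efnb1cKO. Cdkn1b fell by 0.30 in WT (adjusted p = 0.00025), with smaller falls of Cdkn2c and Cdkn2d, while Cdkn2a (1.80, adjusted p = 0.00021), Cdkn3 (1.29, adjusted p = 0.0053) and Cdkn2b (0.89, adjusted p = 9.8e-06) rose. Of 32 cell cycle genes, 8 rose and 3 fell in WT and 16 rose and 3 fell in Efnb1cKO, where 20.5% and 21.2% of all genes rose and 17.5% and 18.9% fell. Without the 3 arrays that stood apart, which had high Mki67, 16 rose and 3 fell in WT and 22 rose and 3 fell in Efnb1cKO. In WT Cenpf (1.22, adjusted p = 2.8e-07), Aurkb (0.92, adjusted p = 0.034) and Ccnd1 (0.83, adjusted p = 3.6e-07) had the largest rises past the threshold, and Cdk6 (-0.77, adjusted p = 1.6e-06), Rrm2 (-0.61, adjusted p = 9.2e-05) and Cdk2 (-0.56, adjusted p = 4.4e-06) the largest falls. Ccnd2, a D-type cyclin gene, was higher by 0.29 in Efnb1cKO at P60 (adjusted p = 0.029), as was the skeletal muscle marker Tnnt3 by 0.68 (adjusted p = 0.0083), and no other gene of the pathway and marker lists was called for genotype.

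The Notch family of Dlk1 fell more often than it rose. Of 13 tested genes 9 fell and 1 rose in WT, and 6 fell and 1 rose in Efnb1cKO, where 17.5% and 18.9% of all genes fell. Without the 3 arrays 7 fell and 2 rose in WT, and 6 fell and 2 rose in Efnb1cKO. The receptor gene Notch1 fell by 1.03 in WT (adjusted p = 0.039), but its probe also holds the run AAGAAGAAG, as do those of Grb14 and Pik3ca in the IGF list. Hey2 (-0.45, adjusted p = 0.00066) and Hey1 (-0.42, adjusted p = 0.0047), target genes of Notch, fell as well, and the ligand gene Jag2 rose by 0.22 (adjusted p = 0.0014).

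Markers of fibroblasts moved with the group. All 8 tested fibroblast markers fell in WT, with a median of -0.72, and 7 of 8 fell in Efnb1cKO, with a median of -0.58. Over all genes 17.5% fell and 20.5% rose in WT, and 18.9% and 21.2% in Efnb1cKO, the background for each marker count given here. Their summed level was 16.07 to 16.69 in WT and 16.04 to 16.52 in Efnb1cKO at P20, and 15.17 to 15.41 and 15.10 to 15.52 at P60, without overlap between the ages. Among them Col1a1 fell by 1.36 in WT and Pdgfra by 0.51, and none was at 0. Of 8 cardiomyocyte markers 3 rose and 1 fell in WT, with a median of 0.11, and 1 rose and 1 fell in Efnb1cKO. Of 7 endothelial markers 3 fell in WT and 4 in Efnb1cKO, with none higher. Of 7 mural cell markers 4 and 3 fell, with none higher (medians -0.24 and -0.13, lowest -1.85 and -1.35). Their summed level, in which the brightest markers weigh most, was 16.39 to 16.50 at P20 and 15.43 to 15.64 at P60 in WT. In Efnb1cKO it was 16.17 to 16.46 at P20 and 15.51 to 15.79 at P60, also without overlap. Of 3 tested skeletal muscle markers 1 fell in each genotype, Tnni2 (-2.09 in WT and -2.01 in Efnb1cKO). Of 4 erythroid markers 1 fell in WT (median -0.71) and 3 in Efnb1cKO (median -1.34), and of 4 Schwann cell markers 2 fell in each genotype. Of 6 macrophage markers 2 rose in each genotype, of 6 adipocyte markers 1 rose in WT and 2 in Efnb1cKO (medians 1.19 and 1.31), and of 4 atrial markers 1 rose in WT and 0 were called in Efnb1cKO. None of 3 epicardial markers was called. The part of these cells in the fall of the imprinted genes was not tested.

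**Figure D5:**
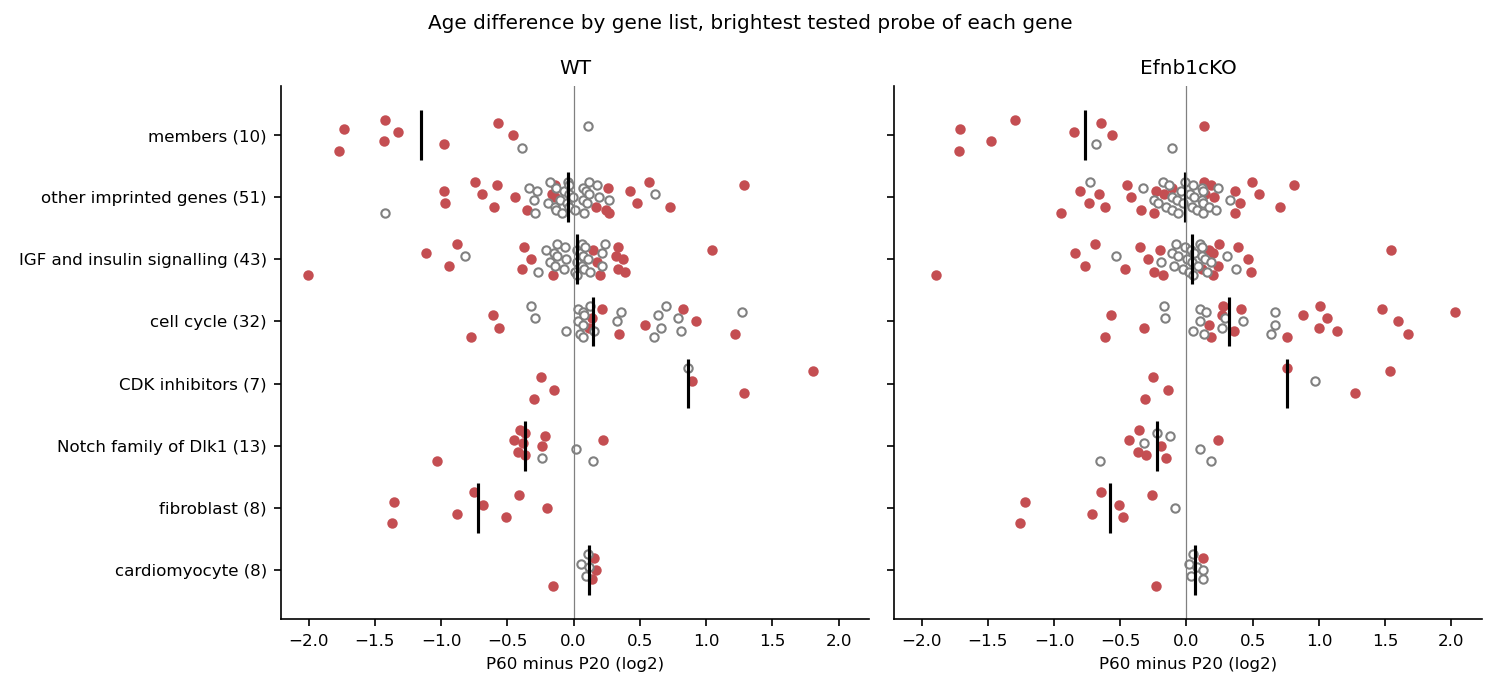
Difference between P60 and P20 (log2 scale, horizontal axis) in WT (left) and Efnb1cKO (right) for the 10 imprinted growth genes (members) and 7 lists, 1 point per gene from its brightest tested probe, with the number of genes in brackets; filled points have an adjusted p under 0.05 and black bars are medians. The 10 genes have medians of -1.15 and -0.76, the other imprinted genes -0.04 and -0.02, and the fibroblast markers -0.72 and -0.58.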

How the data were processed

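Left ventricles of 23 mice were measured on 1 array each. The authors deposited scanner files with the intensity of 62976 spots, read with Agilent Feature Extraction 10.10.1.1 per the file headers, which also give mm9 as the build of the probe coordinates. A deposited table of the authors' log2 values, made with limma per the submitters' processing notes, served as an alternative only. Here log2 of the processed signal was scaled to each array's 75th percentile, 3671 control spots and outlier spots were left out, and spots of a probe were averaged. Probes well above background on at least 5 arrays were tested with limma 3.58.1 (R 4.3.3), in 1 fit of 4 group means with 19 residual degrees of freedom and Benjamini-Hochberg adjustment over 35719 probes. The fit was tested on simulated data.

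The 10 genes, the lists and the tests were chosen with earlier results of these data known, so no test here is independent support. The genes named are the 10, the 3 largest rises and falls past the threshold in WT per list, any gene of a pathway list past it for genotype, and the 3 nearest by root mean square difference. Igf1, Igf1r, Col1a1, Pdgfra, Tnnt3, Tnni2, Arntl, Dbp and Mki67 were named after their values were seen, as was the run AAGAAGAAG. Each gene of a list is read by its brightest tested probe. Probe symbols are those of the array design. The number of arrays limits the precision. Exons and UTRs were not determined, since the annotation used here is of another build. Alternatives were normexp with an offset of 50, quantile and median scaling, other filters, slide and replicate blocks, array weights, a robust trended prior, only the compared groups, the authors' values and each array left out. Chosen after seeing the data were a block for each array's place on its slide, the removal of 3 arrays at P20, 3 at P60 or all 6, a clock gene covariate and a covariate from the probes with the run.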

Additional observations from a re-analysis of the deposited data

Results flagged for a closer look

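Of 84 sets of values (21 probes in 4 groups), 7 held a ventricle far from the others of its group by Dixon's criterion, where chance alone gives about 1 in 20. The sets share arrays and genes and are not independent, so that rate cannot say whether 7 is an excess. In 5 of them the ventricle was Efnb1cKO replicate 6 at P20, 1 of the 3 arrays with high Arntl. Igf2 A_51_P516833 was at 10.78 there, with the next at 10.38, and Dlk1 A_66_P117477 at 7.26, with the next at 5.99. Meg3 A_55_P2736854 was at 12.26, with the next at 11.80, and Meg3 A_55_P2033407 at 7.99, with the next at 7.52. Mest A_55_P2090025 was at 8.52, with the next at 7.68. The other 2 were low values in Efnb1cKO at P60: Meg3 A_55_P2033407 at 6.37 in replicate 5, with the next at 6.68, and Mest A_55_P2151868 at 4.10 in replicate 3, with the next at 4.59. The cause of these values was not tested.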

How the results depend on the processing

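Over 17 other settings, the number of probes of the 10 genes past the threshold for age was 15 to 17 in WT and 14 to 17 in Efnb1cKO, and with each array left out 15 to 17 and 14 to 16. By brightest probes the counts were 7 to 9 and 7 to 8 of 10, and with each array left out 7 to 8 in both genotypes. For genotype at P20 and the interaction they stayed at 0 under every alternative run. For genotype at P60 the count was 1 instead of 0, by all probes and by brightest probes, under array weights, a robust trended prior, the authors' values, removal of the 3 arrays at P20 and the clock gene covariate. In each case the probe was Plagl1 A_55_P1961968, with differences of 0.21, 0.20, 0.23, 0.20 and 0.21 (limma adjusted p = 0.0199, 0.0365, 0.0435, 0.0374 and 0.0419); with each array left out the count was 0. Over all tested probes these settings called 522, 274, 226, 427 and 326, against 214. With the replicate number as a block the counts were 16 in WT and 15 in Efnb1cKO. They were 0 for genotype at P20, genotype at P60 and the interaction. Deviations of ventricles with the same number correlated at -0.17 to 0.39 over 22 pairs, 10 of them over 0.1. Between the genotypes they correlated at 0.03 to 0.39 at P20 and at -0.17 to 0.27 at P60. Replicate 4 was at 0.24 to 0.32 in every comparison. Ventricles with different numbers were not compared, so whether the numbers pair the ventricles was not tested. The relation of Igf2 and H19 in Efnb1cKO at P20 reversed to -0.893 without the 2 arrays farthest from the median, and that of Dlk1 and Meg3 there moved from 0.15 to -0.55. Among differences not past the threshold, the sign changed in 11, 4, 57, 59 and 38 pairs of a probe and a setting for age in WT, age in Efnb1cKO, genotype at P20, genotype at P60 and the interaction. Signal over background limits the dim probes, and 29 values were missing among all tested probes.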
